A study of Mus musculus with 4 samples.

Results

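Genes of homologous recombination, of the Fanconi anaemia pathway and of the ATM and ATR checkpoint were followed in cultured muscle stem cells (MuSC) after loss of Prmt5, an arginine methyltransferase that modifies histones and other proteins. The set was chosen by name as 37 genes of these pathways, with earlier results of these data known. All 37 were among the 20065 genes of the deposited table. All 37 also had a mean normalized count of at least 5, as did 16153 of the 20065 genes, so none was lost to the filter on low counts. Total RNA depleted of ribosomal RNA was sequenced from 4 libraries, 2 control and 2 Prmt5sKO.

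Control cells carried the genotype Pax7CreERT2/Prmt5+/loxP (+TAM). They are called wild type in the labels, but they are heterozygous for the floxed allele and carry the same Cre driver and tamoxifen treatment as the mutant. Mutant cells carried Pax7CreERT2/Prmt5loxP/loxP (+TAM), so that both Prmt5 copies can be recombined in cells that have expressed the Pax7-driven Cre. All cells were satellite cells from limb and trunk muscles of adult C57BL/6 mice. They were cultured before RNA isolation and, by the text of the study, treated with 4-OH in vitro, whereas the labels give TAM without a route. No label states that the libraries of a group came from separate animals or cultures, so the p-values measure only the spread between these samples.

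Homologous recombination repairs broken chromosomes by copying the intact sister chromatid, and it works mainly in cells that are replicating or have replicated their DNA. BRCA1 and BRCA2 complexes prepare resected ends for pairing with the sister strand, the Fanconi proteins unhook crosslinks between DNA strands and protect stalled forks, and the kinases ATM and ATR with their targets CHK2 and CHK1 hold the cell cycle while repair proceeds. Transcripts of many of these genes are known to be more abundant in cycling than in resting cells, and MuSC alternate between a resting and a cycling state.

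The recovered reads summed to between 13240754 and 20047430 per library, and since the deposited columns carry no replicate numbers, the 2 libraries of a group are told apart by depth, and paired values are given with the deeper library first. Normalized counts were scaled by trimmed mean of M-values (TMM). Prmt5 itself had 2223 and 2843 normalized counts in control MuSC and 238 and 198 in Prmt5sKO MuSC. The shallower Prmt5sKO library stood apart. The 12 markers of differentiating muscle summed to 12862 and 8074 normalized counts in control and to 18704 and 254792 in Prmt5sKO MuSC. Of these, 10 of 12 were higher in both Prmt5sKO libraries, against 25.2% of all genes tested. Xist, the X-inactivation transcript, had 8479 and 22.8 normalized counts in control MuSC and 7.97 and 5532 in Prmt5sKO MuSC, so each group held a library with it and a library nearly without it, and the 2 libraries of a group were not repeats of 1 RNA sample. The 8 myogenic markers summed to between 44042 and 74929 in the 4 libraries. Marker sums were low for fibro-adipogenic cells (238 to 351 over the 5 of 6 markers that were tested), for endothelial cells (55.1 to 146 over 3) and for haematopoietic cells (64.5 to 123 over 3). Lum was at 0 in 3 of the 4 libraries and at 26.6 in the shallower control library, while Smoc2, also a fibro-adipogenic marker, held 140 to 244. Markers of these cells too low to be tested are not in the sums. Those in the table were each highest in the shallower control library, at no more than 17.8.

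Across the set, transcripts were mostly less abundant in Prmt5sKO than in control MuSC, with fitted levels from 29.6% of control for Rad54l to 113% for Rad51d. The median log2 fold change of the 37 genes, Prmt5sKO over control, was -0.87, against 0.02 over the 16153 genes tested. It was below 0 for 34 of the 37 genes and above 0 for Mus81, Fancc and Rad51d. In 29 of 37 genes (78.4%) both Prmt5sKO libraries lay below both control libraries, which held for 23.6% of all genes tested. Only 2 of the 37 (5.41%), Rad51d and Fancc, had both Prmt5sKO libraries above both control libraries, against 25.2% of all genes. The groups overlapped for the other 6, Atr, Rad50, Rbbp8, Slx4, Mus81 and Fancg. At least a 2-fold lower level was fitted for 17 of 37 genes (45.9%) and for 8.99% of all genes tested, while a 2-fold higher level was fitted for 0 of the 37 and for 12.8% of all genes.

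No gene of the set passed the test. The number called with an adjusted p of at most 0.05 and at least a 2-fold change was 0 of 37 in limma-voom after Benjamini-Hochberg correction. It was also 0 of 16153 genes (0% of all genes tested). Prmt5, the deleted gene, was not called either, with a log2 fold change of -3.52. Its adjusted p of 0.193 in limma-voom was the smallest of all genes tested, so the lack of calls does not show a lack of differences. The study itself reported differentially expressed genes from these libraries with DESeq2. Adjusted p-values of the 37 genes ran from 0.198 for Exo1 to 0.886 for Fancf. At an unadjusted p under 0.05, 21 of 37 (56.8%) were lower in Prmt5sKO, against 6.97% of all genes tested, and 0 of 37 were higher, against 6.03%. With both possible pairings of libraries fitted as a block, 0 or 5 of the 37 were called, the latter where 0.953% of all genes tested were called lower. With 2 libraries against 2, an exact permutation test of a single gene cannot go below p = 0.33.

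**Figure D1:**
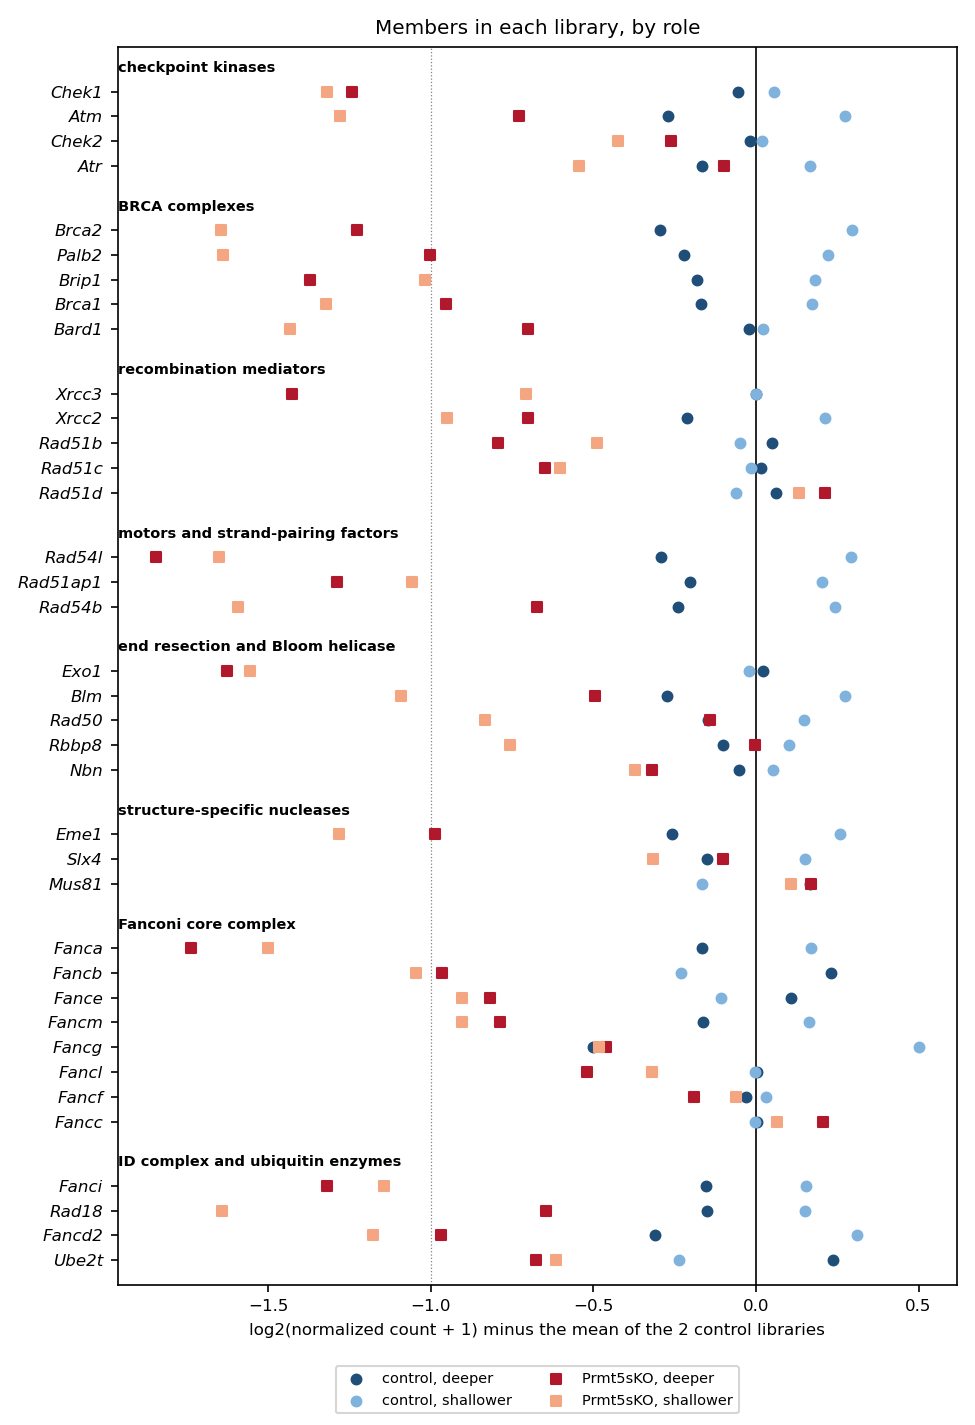
Each row is a gene, grouped by role, and each point is a library. The horizontal axis is log2(normalized count + 1) minus the mean of the 2 control libraries, circles are control and squares Prmt5sKO libraries, and the dotted line marks a 2-fold lower level. In 29 of 37 genes both squares lie left of both circles, and the distance between the 2 squares is wide for genes such as Rad18 and Rad54b.

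The share of all reads that fell on the 37 genes was 0.126% and 0.145% in control and 0.0941% and 0.0694% in Prmt5sKO MuSC. Both Prmt5sKO libraries thus held a smaller share than either control library. In the deeper Prmt5sKO library 29 of 37 genes lay below both control libraries, against 36.1% of all genes tested, and in the shallower one 33 of 37 did, against 38.2% of all genes. Without the shallower Prmt5sKO library the median log2 fold change was -0.70, and without the shallower control library it was -0.75.

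Proliferation markers were lower as well. Of the 9 markers, 8 were lower in both Prmt5sKO libraries, against 23.6% of all genes tested. The 9 summed to 30122 and 35068 normalized counts in control MuSC and to 17677 and 15421 in Prmt5sKO MuSC. The 6 subunits of the replicative helicase, Mcm2 to Mcm7, are loaded on origins before S phase. Of these genes, 6 of 6 were lower in both Prmt5sKO libraries, against 23.6% of all genes tested. Their median log2 fold change was -1.22, with values from -1.45 for Mcm3 to -1.05 for Mcm4. The part of these differences in cycling in the result for the repair genes was not tested. In bulk RNA, fewer cells with a transcript and less of it per cell cannot be told apart.

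Among the checkpoint kinases, Chek1 showed the lowest level relative to control. Chek1 encodes the kinase that ATR activates at stalled forks (chromosome 9, 36708482 to 36727065, GRCm38, minus strand). It had 441 and 476 normalized counts in control MuSC and 193 and 183 in Prmt5sKO MuSC. The 2 groups did not overlap, and the values within each group were close. Its log2 fold change was -1.28 (standard error, SE, 0.26, 95% interval -1.92 to -0.64, adjusted p = 0.233 in limma-voom). Chek2, the kinase downstream of ATM, had 217 and 222 normalized counts in control and 183 and 163 in Prmt5sKO MuSC, a smaller separation with a log2 fold change of -0.34 and an interval from -1.06 to 0.39.

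Atm, the kinase that responds to chromosome breaks, had 1438 and 2098 normalized counts in control and 1047 and 714 in Prmt5sKO MuSC. The groups did not overlap, although the libraries within each group lay far apart, and the fitted level was 50.1% of control (log2 interval -1.72 to -0.27, adjusted p = 0.298). Atr, the kinase that responds to single-stranded DNA, had 880.0 and 1106 in control and 920.5 and 676 in Prmt5sKO MuSC. Its deeper Prmt5sKO library lay between the 2 control libraries, and its log2 fold change was -0.31 with an interval from -0.94 to 0.31.

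Ratios within a library do not depend on the scaling between libraries, and they were taken for 8 pairs of genes of the set that act together or in parallel, a choice made after their values were seen. Per length, the ratio of Chek1 to Chek2 was 1.32 and 1.39 in control MuSC and 0.683 and 0.725 in Prmt5sKO MuSC. That of Atm to Atr was 3.74 and 4.34 in control and 2.60 and 2.42 in Prmt5sKO MuSC. Neither ratio overlapped between the groups, and for 2 against 2 libraries the exact permutation test, 2-sided, gave its smallest possible p of 0.33 for both. The smallest p adjusted over the 8 pairs by Benjamini-Hochberg was 0.67 in the exact test.

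End resection turns a break into a tail of single-stranded DNA. Of the 5 genes of the set for resection and the Bloom helicase, 3 were lower in both Prmt5sKO libraries (23.6% of all genes tested). Only 1, Exo1, was fitted at least 2-fold lower (8.99% of all genes tested). Resection genes outside the set are not counted here. Exo1 encodes a nuclease of long-range resection (chromosome 1, 175880581 to 175913489, GRCm38, plus strand). It had 906 and 879 normalized counts in control MuSC and 288 and 303 in Prmt5sKO MuSC. Its libraries agreed closely within each group, the Prmt5sKO level was 33.1% of the control level, and the log2 fold change of -1.60 (SE 0.23, interval -2.15 to -1.05) came with the lowest adjusted p of the set, 0.198 in limma-voom.

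Of the MRN complex, which binds the break first, Rad50 and Nbn are in the set, and their differences were smaller than that of Exo1. Mre11a, the third gene of the complex, is among the partners below. Its log2 fold change was -0.74 with an interval from -1.26 to -0.23, without overlap between the groups. Rad50, its coiled-coil ATPase, had 1086 and 1332 normalized counts in control and 1089 and 675 in Prmt5sKO MuSC, so the deeper libraries of both groups were nearly equal. Nbn, which encodes NBS1, had 462 and 497 in control and 383 and 369.9 in Prmt5sKO MuSC, close in both groups and without overlap. The log2 fold changes of Rad50 and Nbn were -0.47 and -0.34, with intervals that held 0. The ratio of Rad50 to Nbn per length, 1.11 and 1.26 in control and 1.34 and 0.860 in Prmt5sKO MuSC, overlapped between the groups.

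Rbbp8 encodes CtIP, which starts resection with MRN, and it had 855 and 984 normalized counts in control and 916 and 542 in Prmt5sKO MuSC. Only its shallower Prmt5sKO library was low, and without that library the log2 fold change was 0.00. Blm, the Bloom helicase, which takes part in resection and dissolves crossed strands, had 514 and 751 in control and 441 and 291 in Prmt5sKO MuSC, or a log2 fold change of -0.76 with an interval from -1.55 to 0.03.

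In the BRCA complexes every gene, 5 of 5, was lower in both Prmt5sKO libraries, had an unadjusted p under 0.05 and was fitted at least 2-fold lower, and the same held for 3 of 3 motors and strand-pairing factors. Over all genes tested, 23.6% were lower in both libraries, 6.97% were lower at that p and 8.99% were fitted at least 2-fold lower. Brca2, which encodes a large mediator of recombination (chromosome 5, 150522630 to 150570329, GRCm38, plus strand), had 715 and 1079.6 normalized counts in control and 375 and 280.4 in Prmt5sKO MuSC. Its log2 fold change was -1.41 (SE 0.31, interval -2.17 to -0.66, adjusted p = 0.244), a level of 37.5% of control. Brca1, the ubiquitin ligase that favours resection (chromosome 11, 101488764 to 101551955, GRCm38, minus strand), had 1283 and 1626 in control and 746 and 577 in Prmt5sKO MuSC, with a log2 fold change of -1.13 (SE 0.25, adjusted p = 0.244).

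Bard1 encodes the partner without which BRCA1 is unstable, and it was the most abundant gene of the set per length, at 17.8 reads per kilobase of exon per 1000000 effective reads in the control mean. It had 1565 and 1609.9 normalized counts in control and 976 and 587 in Prmt5sKO MuSC. The ratio of Brca1 to Bard1 per length was 0.544 and 0.670 in control and 0.507 and 0.652 in Prmt5sKO MuSC, so the ratios of the groups overlapped (exact permutation test, 2-sided, p = 0.667).

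Palb2, the bridge between BRCA1 and BRCA2, had 247 and 335 normalized counts in control and 143 and 91.5 in Prmt5sKO MuSC. Brip1, a helicase that binds BRCA1 and is also the Fanconi gene J, had 437 and 562 in control and 191 and 244 in Prmt5sKO MuSC. Palb2 was lower in the shallower and Brip1 in the deeper of the 2 Prmt5sKO libraries, and the log2 fold changes were -1.28 and -1.21.

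Rad51b, Rad51c, Rad51d, Xrcc2 and Xrcc3, whose proteins form mediator complexes of recombination, differed among themselves. Xrcc3 had 396 and 396 normalized counts in control MuSC and 146 and 242 in Prmt5sKO MuSC, with a log2 fold change of -1.11 (SE 0.33). Xrcc2 had 269.7 and 363 in control and 192 and 161 in Prmt5sKO MuSC, with a log2 fold change of -0.81 (SE 0.31). Both had an unadjusted p under 0.05 and neither passed after adjustment (adjusted p = 0.297 and 0.363 in limma-voom).

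Rad51d, whose protein binds that of Xrcc2 in the BCDX2 complex, went the other way, with 238 and 218 normalized counts in control and 264 and 249.9 in Prmt5sKO MuSC. The difference was small, a log2 fold change of 0.17 with an interval from -0.51 to 0.85. Per length, the ratio of Xrcc2 to Rad51d was 0.808 and 1.18 in control and 0.518 and 0.460 in Prmt5sKO MuSC, without overlap (exact permutation test, 2-sided, p = 0.33). The remaining members of that complex were the 2 least abundant genes of the set per length. Rad51b had 47.5 and 44.4 normalized counts in control and 26.1 and 32.5 in Prmt5sKO MuSC, and Rad51c had 106 and 104 against 66.7 and 68.9. For neither gene did the groups overlap, while their ratio per length, 0.523 and 0.498 against 0.457 and 0.550, did. Both intervals of the log2 fold change held 0, and Rad51b rested on as few as 33 reads in a library.

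Genes for the motors and strand-pairing factors of recombination held the largest single difference of the set. Rad54l encodes RAD54, a DNA translocase of recombination (chromosome 4, 116094264 to 116123690, GRCm38, minus strand). It had 562 and 844 normalized counts in control MuSC and 191 and 218 in Prmt5sKO MuSC. Even the lower control value exceeded the higher Prmt5sKO value by more than 2-fold, the fitted level was 29.6% of control and the log2 fold change was -1.75 (SE 0.32, interval -2.53 to -0.98, adjusted p = 0.214).

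Rad51ap1, which stabilises the paired strands, had 742 and 983 normalized counts in control and 349 and 409 in Prmt5sKO libraries (log2 fold change -1.18, SE 0.26). Rad54b, a relative of RAD54, had 374 and 523 in control and 277 and 146 in Prmt5sKO libraries (log2 fold change -1.08, SE 0.39). Its 2 Prmt5sKO libraries differed by 0.92 on the log2 scale. Rad54b shares 35.8% of its exon bases with Fsbp on the same strand, so reads there cannot be given to either gene with certainty, though Fsbp itself held at most 33.0 normalized counts in a library. Rad54l shares 15.4% of its exon bases with Lrrc41 on the opposite strand, and Lrrc41 had a log2 fold change of -0.26.

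**Figure D2:**
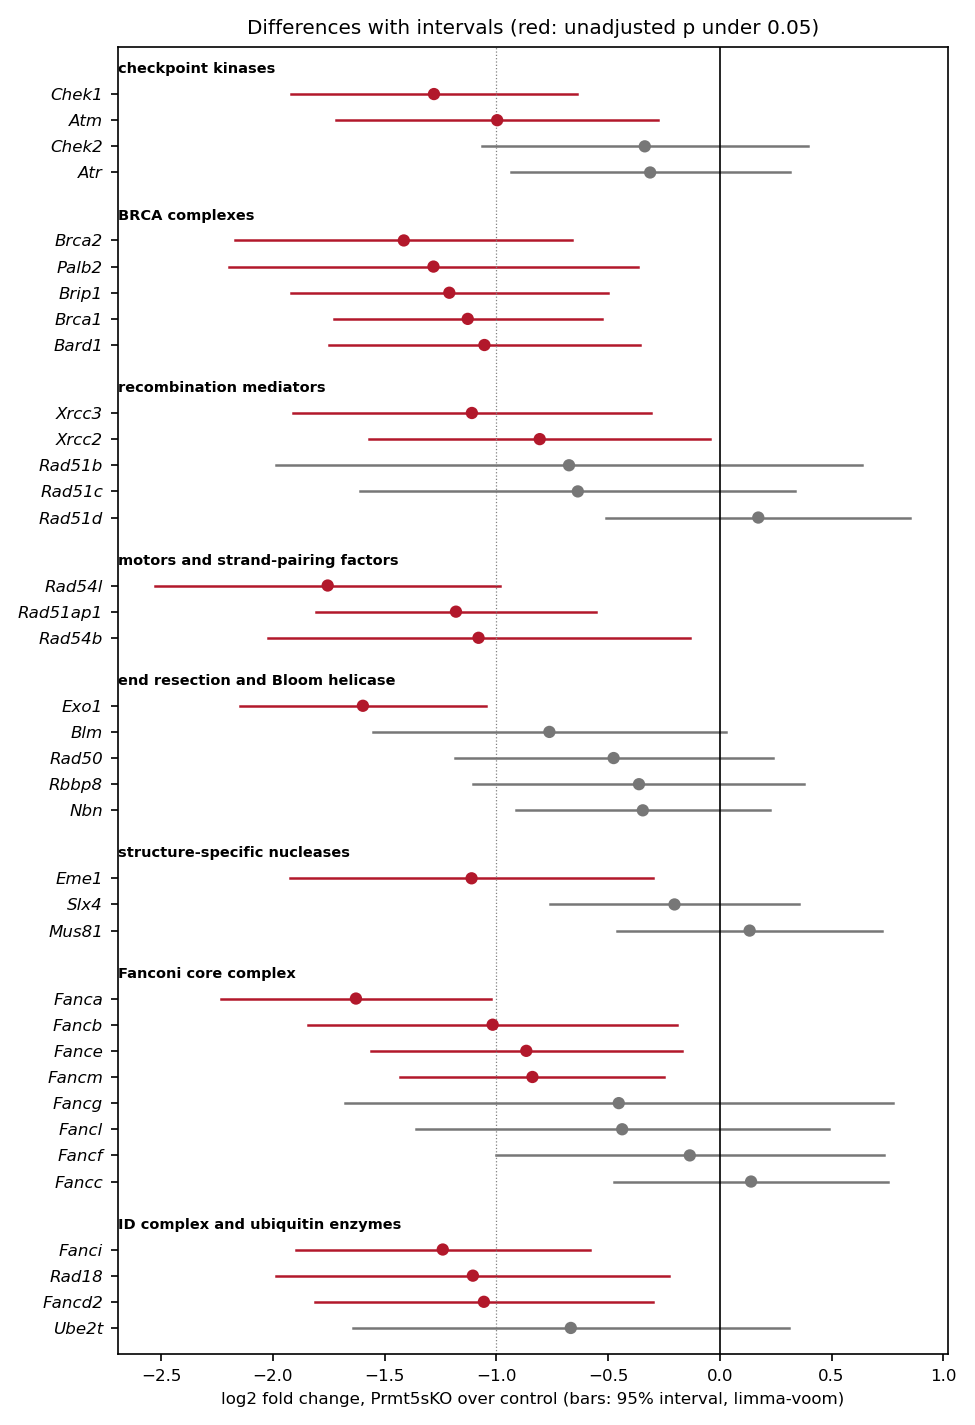
Points give the fitted log2 fold change of each gene, Prmt5sKO over control, on the horizontal axis, with bars for the 95% interval in limma-voom, and rows follow the roles. Red marks the 21 genes with an unadjusted p under 0.05, and the intervals of the other 16 genes, in grey, hold 0.

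The structure-specific nucleases, which cut branched DNA, differed between Mus81 and Eme1, whose proteins act as a pair. Mus81, the catalytic subunit, had 514 and 409 normalized counts in control and 515 and 494 in Prmt5sKO MuSC, or a log2 fold change of 0.13 with an interval from -0.46 to 0.73. Eme1, which encodes a partner subunit of MUS81, had 285 and 409 in control and 172 and 139.7 in Prmt5sKO MuSC, or a log2 fold change of -1.11 (SE 0.33, interval -1.92 to -0.30). It shares 8.0% of its exon bases with Lrrc59 on the opposite strand, which held between 2584 and 5290 normalized counts in a library and had a log2 fold change of -0.72. The ratio of Eme1 to Mus81 per length was 0.717 and 1.29 in control MuSC and 0.430 and 0.365 in Prmt5sKO MuSC, so both Prmt5sKO ratios lay below both control ratios (exact permutation test, 2-sided, p = 0.33). Slx4, the scaffold that gathers several nucleases, had 787 and 969 in control and 814 and 700.5 in Prmt5sKO MuSC, with overlap between the groups and a log2 fold change of -0.20.

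The Fanconi core complex, a ubiquitin ligase recruited to crosslinks, was uneven. Fanca, a large subunit of it (chromosome 8, 123268300 to 123318576, GRCm38, minus strand), had 966 and 1219 normalized counts in control MuSC and 325 and 383 in Prmt5sKO MuSC. The fitted level was 32.4% of control and the log2 fold change was -1.63 (SE 0.25, interval -2.23 to -1.02, adjusted p = 0.203). Its exons share 10.5% of their bases with Zfp276 on the opposite strand, which had a log2 fold change of 0.10.

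Besides Fanca, 3 of the 8 core genes were lower at an unadjusted p under 0.05, against 6.97% of all genes tested. Fancb, which is X-linked and binds the ligase subunit, had 292 and 212 normalized counts in control and 127 and 120.0 in Prmt5sKO MuSC. Fance, the link to the substrate, had 338 and 292 in control and 178 and 167 in Prmt5sKO MuSC. Fancm, the translocase that anchors the complex on DNA, had 629 and 788 in control and 407 and 376 in Prmt5sKO MuSC. These 3 genes had log2 fold changes of -1.02, -0.87 and -0.84, with Prmt5sKO libraries that lay close to each other.

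Fancl encodes the ligase subunit itself, and it had 117 and 117 normalized counts in control and 81.2 and 93.5 in Prmt5sKO MuSC. Fancf, the adaptor, had 122 and 127 against 109 and 119, and Fancg, a subunit that binds FANCA, had 64.1 and 129 against 66.0 and 64.9. The Fancg difference rested on the shallower control library, without which its log2 fold change was 0.04 in place of -0.45. Fancc, whose protein binds that of Fance, had 326 and 325 in control and 375 and 340.4 in Prmt5sKO MuSC, or a log2 fold change of 0.14 with an interval from -0.47 to 0.75. Fancc, Fancf and Fancl share 16.4%, 14.96% and 13.7% of their exon bases with Gm16133, Gas2 and Vrk2 on the opposite strand, and whether the counting used strand is not given in the sources used here. Gas2 and Vrk2 had log2 fold changes of -0.71 and -0.58, and Gm16133 held at most 7.87 normalized counts in a library.

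Downstream of the core, the FANCI and FANCD2 proteins form the clamp that the complex marks with ubiquitin. Fanci had 469 and 579.8 normalized counts in control and 208 and 235 in Prmt5sKO MuSC, and Fancd2 had 444 and 684 in control and 281 and 243 in Prmt5sKO MuSC. The log2 fold changes were close, -1.24 (SE 0.27) and -1.06 (SE 0.31), and the ratio of Fancd2 to Fanci per length overlapped between the groups, at 0.690 and 0.858 in control and 0.983 and 0.752 in Prmt5sKO libraries (exact permutation test, 2-sided, p = 0.667). Fanci shares 16.0% of its exon bases with Polg on the opposite strand, and Polg had a log2 fold change of -0.12.

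Ube2t, the ubiquitin-conjugating enzyme that serves this step, had 148 and 107 normalized counts in control and 78.3 and 81.7 in Prmt5sKO MuSC, with a log2 fold change of -0.67 and an interval from -1.64 to 0.31. Rad18, the ligase that marks PCNA at stalled forks, had 749.5 and 922 in control and 531 and 266 in Prmt5sKO MuSC, or a log2 fold change of -1.10 (SE 0.36). Its 2 Prmt5sKO libraries differed by 1.00 on the log2 scale, the widest gap between them in the set, with the lower value in the shallower library.

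**Figure D3:**
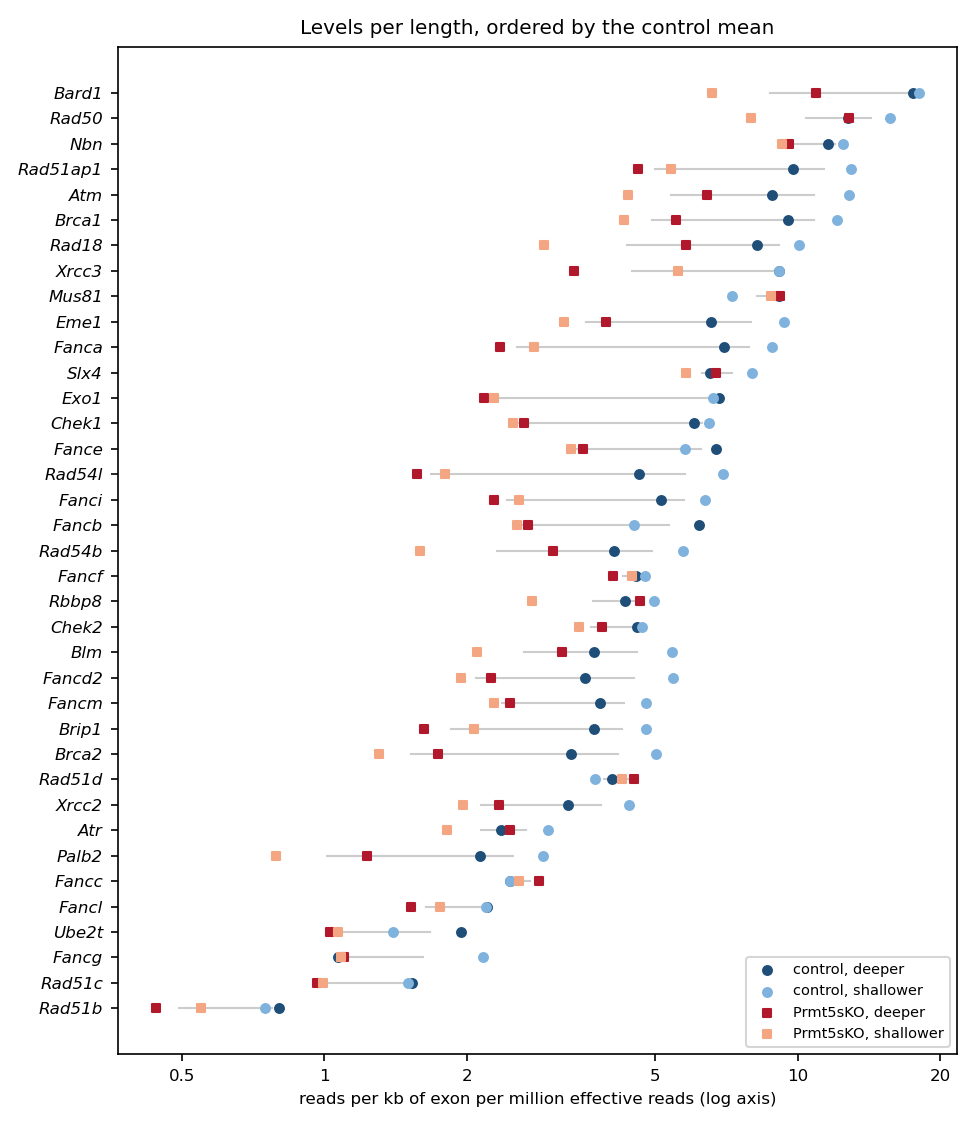
Reads per kilobase of exon per 1000000 effective reads, on a log axis, are drawn for the 37 genes in each of the 4 libraries, ordered by the control mean, with a grey line from the control mean to the Prmt5sKO mean. Levels in the control mean run from 17.8 for Bard1 to 0.775 for Rad51b, and Exo1, Fanca and Rad54l show long lines while Mus81, Fancc and Rad51d show short ones that point right.

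Levels per length put these differences in order of abundance. In the control mean, Bard1 was followed by Rad50 (14.2), Nbn (12.0), Rad51ap1 (11.4), Atm (10.8) and Brca1 (10.8). In the Prmt5sKO mean, Rad50 (10.4) and Nbn (9.42) stood above Mus81 (8.96) and Bard1 (8.75). Between neighbours in these orders the libraries of a group overlapped for several pairs, such as Atm and Brca1, and no rank was tested.

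Other genes of the same pathways were set beside the 37 as 3 lists. Of 29 recombination partners 27 were in the table and tested, with a median log2 fold change of -0.23. In both Prmt5sKO libraries 15 of them were lower and 4 higher than in both control libraries, where 23.6% and 25.2% of all genes tested were. At an unadjusted p under 0.05, 12 were lower (6.97% of all genes). Mre11a, the nuclease of the MRN complex, had 1442 and 1615 normalized counts in control and 983 and 840.2 in Prmt5sKO MuSC, or a log2 fold change of -0.74 in limma-voom. The extremes of that list were Rmi2, a subunit of the Bloom complex, at -2.03 and Eme2, the other partner of MUS81, at 0.31. Rmi2 rested on few reads, 50 and 74 in control and 28 and 14 in Prmt5sKO MuSC, with an interval from -3.58 to -0.48.

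Checkpoint partners lay lowest of the 3 lists. All 21 were tested, and the median was -0.69. Both Prmt5sKO libraries lay below both control libraries for 18 and above them for 2 (23.6% and 25.2% of all genes tested). At an unadjusted p under 0.05, 13 were lower and 1 higher (6.97% and 6.03% of all genes). Clspn, which encodes the adaptor through which ATR activates CHK1, had 1513 and 1272 normalized counts in control and 409.5 and 449 in Prmt5sKO MuSC, with a log2 fold change of -1.70 (SE 0.22, adjusted p = 0.198). Topbp1, the activator of ATR, had a log2 fold change of -1.01 with no overlap between the groups. Atrip, the obligate partner of ATR, had 345 and 499.8 in control and 374 and 292 in Prmt5sKO MuSC, with overlap and a log2 fold change of -0.30, a value next to that of Atr. Rad17, which loads the checkpoint clamp, was at the other end of the list with 0.58.

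Fanconi partners had a median of -0.23 over 13 genes. In both Prmt5sKO libraries 5 were lower and 2 higher (23.6% and 25.2% of all genes tested). At an unadjusted p under 0.05, 3 were lower (6.97% of all genes). Cenps, a histone-fold protein that binds FANCM, had the lowest value of that list, -1.41, and Rev1, a polymerase of translesion synthesis, the highest, 0.52. End joining, the other main route of break repair and active throughout the cell cycle, had a median of 0.25 over 8 genes. None of those 8 was lower in both Prmt5sKO libraries and 3 were higher in both, against 23.6% and 25.2% of all genes tested. At an unadjusted p under 0.05, 0 were lower and 0 higher, against 6.97% and 6.03% of all genes. With 8 genes, counts this small say little beside those shares. Values ran from -0.61 for Xrcc6 to 0.82 for Paxx, and the groups overlapped for both genes. Paxx had 82.9 and 46.9 normalized counts in control and 65.2 and 222 in Prmt5sKO MuSC, so only its shallower Prmt5sKO library was high. The difference between the lists was not tested.

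**Figure D4:**
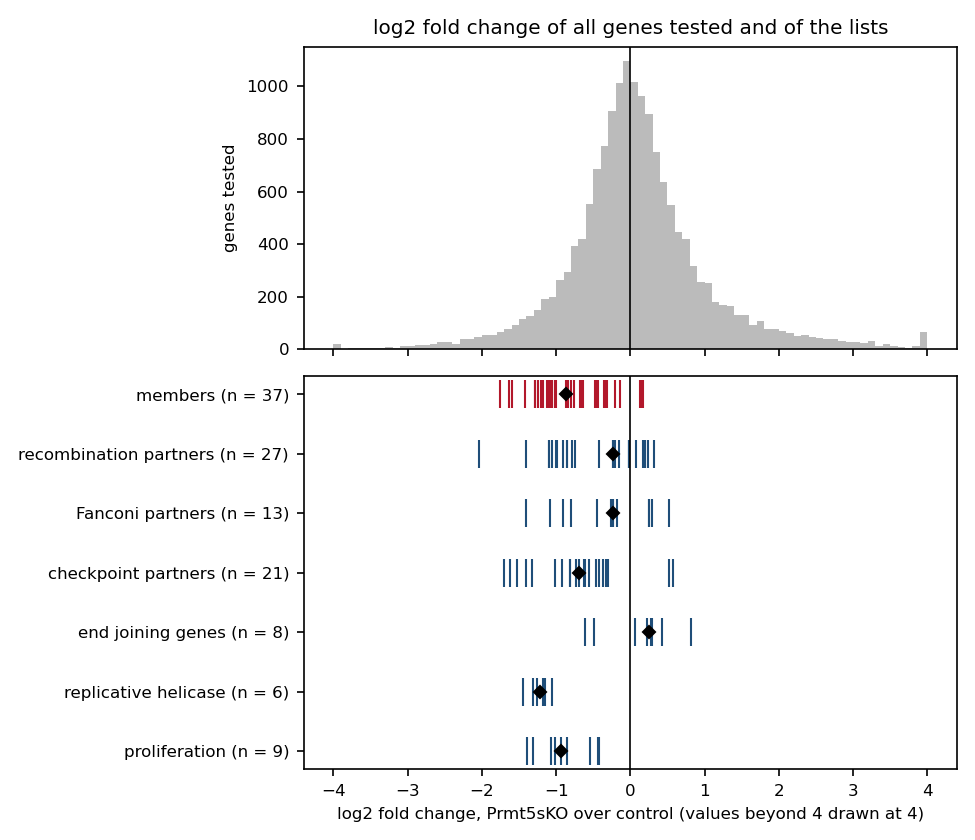
The upper panel is a histogram of the log2 fold change, Prmt5sKO over control, of the 16153 genes tested, and the lower panel marks each gene of a list with a line and each median with a diamond on the same axis. The median of the 37 genes lies at -0.87 and those of the recombination, Fanconi and checkpoint partners at -0.23, -0.23 and -0.69, while that of the end joining genes lies at 0.25.

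By library, the median of the 37 genes relative to the control mean was -0.15 and 0.15 in control and -0.70 and -0.95 in Prmt5sKO MuSC, on the log2 scale. The median of the proliferation markers was -0.97 and -0.96 in the 2 Prmt5sKO libraries, and that of the differentiating muscle markers was 0.86 and 5.08. The shallower Prmt5sKO library, in which the markers of differentiating muscle were highest, was thus the lower of the 2 for the median of the repair genes, while the 2 medians of the proliferation markers lay close together and their sum was also lower in the shallower library. The median difference of the 37 genes, shallower minus deeper library, was -0.09 within Prmt5sKO and 0.30 within control. Over all genes tested it was -0.02 in both cases. The part of the muscle markers in the result was not tested.

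**Figure D5:**
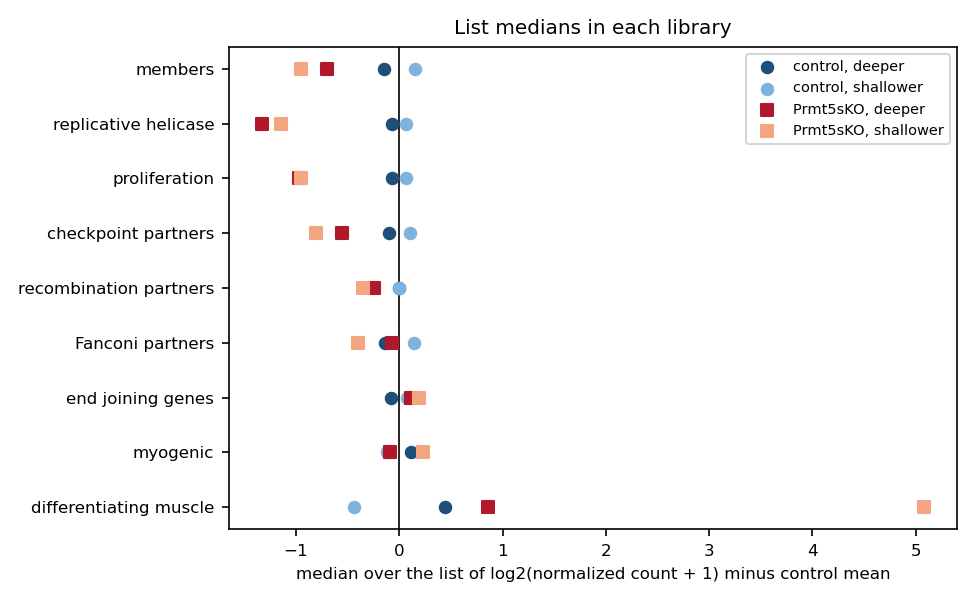
Each point is the median over a list, in a library, of log2(normalized count + 1) minus the control mean, with circles for control and squares for Prmt5sKO libraries. The repair genes, the helicase subunits, the proliferation markers, the checkpoint partners and the recombination partners have both squares left of both circles. The differentiating muscle markers have the shallower Prmt5sKO library at 5.08.

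Promoter windows were read for these genes because most of them differed in the same direction. RefSeq windows on GRCm38.p6, from 250 bases before to 50 after the start, were found for 29 of the 37 genes. The strings TTTCCCGC, TTTCGCGC, TTTGCCGC and TTTGGCGC, forms of the site bound by E2F factors, were searched on both strands. They occurred in 5 of the 29 genes (17.2%) and in 4.50% of the 11123 tested genes with a window. CCAAT, the string bound by NF-Y, occurred in 18 of 29 genes (62.1%) and in 42.3% of tested genes, and TTTGAA, the CHR element, in 3 of 29 (10.3%) and in 14.2%. After the window of Chek1 had been read, TTCCCGCC was added, which overlaps TTTCCCGC where both occur, and it was found in 5 of 29 genes (17.2%) and in 4.54% of tested genes.

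The windows of Brca2, Chek1 and Mus81 are shown whole, 5′ to 3′ on the strand of the gene, since Brca2 and Chek1 were among the genes with a large difference and Mus81 was not. Capitals mark the E2F string in Brca2 and the added string in Chek1 (chr5:150522371-150522670, plus strand, chr9:36726609-36726908, minus strand, and chr19:5488330-5488629, minus strand). The window of Mus81 held no string of any of these kinds.
Brca2: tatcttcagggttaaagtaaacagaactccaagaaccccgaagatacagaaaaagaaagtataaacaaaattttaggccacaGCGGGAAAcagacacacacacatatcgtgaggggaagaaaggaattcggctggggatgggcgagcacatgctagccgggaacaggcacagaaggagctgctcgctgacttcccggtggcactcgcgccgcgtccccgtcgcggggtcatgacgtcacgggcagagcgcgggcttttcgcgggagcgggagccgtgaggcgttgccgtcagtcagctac
Chek1: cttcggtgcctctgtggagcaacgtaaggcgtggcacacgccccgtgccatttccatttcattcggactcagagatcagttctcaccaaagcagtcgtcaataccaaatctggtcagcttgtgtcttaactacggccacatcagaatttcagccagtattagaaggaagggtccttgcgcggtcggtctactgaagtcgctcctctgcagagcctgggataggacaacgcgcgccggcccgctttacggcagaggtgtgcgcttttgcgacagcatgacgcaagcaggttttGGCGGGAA
Mus81: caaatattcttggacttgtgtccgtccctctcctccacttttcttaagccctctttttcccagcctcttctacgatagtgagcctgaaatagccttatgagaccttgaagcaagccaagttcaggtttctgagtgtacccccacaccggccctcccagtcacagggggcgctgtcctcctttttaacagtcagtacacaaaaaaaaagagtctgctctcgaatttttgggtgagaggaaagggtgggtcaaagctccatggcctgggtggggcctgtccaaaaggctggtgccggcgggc

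The other genes with a match are shown by the bases around it, with the match in capitals, again on the strand of the gene, so that the strings can be compared. Bard1 (chr1:71103163-71103192), Chek2 (chr5:110839820-110839849), Fancg (chr4:43010335-43010364) and Rad51c, at each of its 2 annotated starts (chr11:87404477-87404506 and chr11:87404941-87404970), held an E2F string. Fancb (chrX:164980408-164980437), Fancm (chr12:65075538-65075567) and Rad51ap1 (chr6:126939558-126939587) held the added string. The second window of Rad51c held the added string too, overlapping its E2F string, and only the E2F string is in capitals there.
Bard1: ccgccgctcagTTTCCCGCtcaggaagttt
Chek2: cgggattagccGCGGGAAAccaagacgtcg
Fancg: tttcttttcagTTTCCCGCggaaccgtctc
Rad51c (first window): gtttccagcgcTTTCGCGCctcttgctcta
Rad51c (second window): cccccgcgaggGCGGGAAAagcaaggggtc
Fancb: tccggggtagaGGCGGGAAtaagtgctctg
Fancm: aaccaatcatcTTCCCGCCgcaaaatcggc
Rad51ap1: gtctggttttcGGCGGGAAttgaaaccgcc

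The 5 genes with an E2F string had a median log2 fold change of -0.64, from -1.41 for Brca2 to -0.34 for Chek2, and the 24 genes with a window and no such string had a median of -1.01, with Rad54l and Fanca among them. With the added string counted too, the median was -1.02 in 9 genes and -0.93 in 20. A match describes letters in the window and does not show binding.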

How the data were processed

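RNA of cultured MuSC (2 control and 2 Prmt5sKO libraries) was depleted of ribosomal RNA and sequenced on the Ion Torrent Proton platform. The authors trimmed reads with Reaper, aligned them with STAR (2.4.0a, per the submitters' processing notes) to the genome GRCm38, took counts per Ensembl gene and tested them with DESeq2 (given there as 1.62). The deposited signal values are group means of counts divided by each library's size factor. The columns with the authors' mean over all libraries, fold changes, standard errors and p-values were not used.

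In each group mean, a read of either library adds a fixed step, so whole reads per library were recovered from these steps for 100% of 20065 genes in both groups (largest relative residual 5.8e-15, tolerance 2e-14, 0 genes with more than 1 solution). The recovery and the fit were tested on simulated data. The smallest number of reads of a gene of the set in a library was 33 and the largest 1654. Reads are not independent molecules, and 2 libraries per group limit the precision.

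Reads were scaled by TMM (own code, trims of 30% and 5%) and tested with limma-voom (limma 3.58.1, R 4.3.3) over genes whose normalized counts averaged 5 or more. A call needed an adjusted p no higher than 0.05 and at least a 2-fold change. Intervals are 95% intervals of that fit. DESeq2 was not run here. GENCODE M21 gave symbols for 19782 of 20065 identifiers, coordinates and exon lengths, and the promoter windows are from RefSeq. Tables were summarised in Python 3.11.15. The named genes are all 37 of the set, Prmt5, the lowest and highest of each other list, and Mre11a, Atrip and Topbp1, while 1 further gene of that rule is not reported here. Markers are given as sums. Xist, Lum and the genes that overlap members of the set were added after their values were seen. The genes and lists were chosen with earlier results of these data known. Alternatives covered scaling, the filter, limma-trend, both pairings of libraries as a replicate block and each library left out in turn.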

Additional observations from a re-analysis of the deposited data

How the results depend on the processing

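The 12 alternatives kept the direction of the log2 fold change in 440 of 443 values of the 37 genes, and 34 genes kept it under every alternative run. The 3 others turned when a library was left out. Without the shallower control library the log2 fold change of Fancg was 0.036 (-0.99 without the deeper control library) and that of Mus81 was -0.018 (up to 0.29 with another left out), and without the shallower Prmt5sKO library that of Rbbp8 was 0.00074 (-0.76 without the deeper Prmt5sKO library).

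Since the deposited group means name no replicates, the 2 ways to pair the libraries were each fitted as a replicate block. With the deeper libraries paired, 0 genes were called, and differences within the groups correlated at -0.29 over 11461 genes. With the crossed pairing (correlation 0.29), which also joins the libraries with like levels of Xist, 334 genes were called, 5 of them in the set (Rad54l, Fanca, Exo1, Brca2 and Brca1, adjusted p from 0.0279 to 0.0462 in limma-voom), where 0.953% of all genes tested were called lower. Which pairing is right was not tested, and genes are not independent.

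With no factors beyond library size, the median of all genes moved by 0.11, and the medians became -0.12 for the recombination partners, -0.14 for the Fanconi partners, -0.58 for the checkpoint partners and 0.36 for the end joining genes. Robust limma-trend called 1 gene, not in the set. When 1 library at a time was left out, the calls ran from 0 to 480 genes and from 0 to 4 genes of the set (Rad18, Exo1, Fanca and Bard1 without the deeper Prmt5sKO library, where 480 genes were called, and 54 genes without the shallower Prmt5sKO library, a lone library being assumed to vary like the other group). The number lower at an unadjusted p under 0.05 ran from 11, without the shallower control library, to 21. Medians ran from -1.05 to -0.70 for the set, from -0.38 (without the shallower control library) to -0.27 for the recombination partners, from -0.41 to -0.059 for the Fanconi partners, from -0.81 to -0.56 for the checkpoint partners and from 0.10 to 0.27 for the end joining genes. Calls without the deeper Prmt5sKO library were among 15915 genes tested, and those without the shallower Prmt5sKO library among 16009. Each of these fits rests on 1 Prmt5sKO library, and the share of all genes called lower is not given for them. The 4 genes of the set called there are thus not weighed against a background. The causes were not tested.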
